A study of Mus musculus with 36 samples.

Results

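Muscle stem cells and the transcription factors of the myogenic programme were followed through 10 genes: Pax7, Pax3, Myf5, Myod1, Myog, Myf6, Cdh15, Calcr, Mymk and Heyl. They are the rows whose Ensembl identifier carries one of these symbols, and all 10 were found among the 51912 genes of the count tables. RNA-seq was carried out on whole muscles of C57BL/6 mice aged 3 months, either WT or ∆Ig3-MuSK. In ∆Ig3-MuSK mice a CRISPR-Cas9 deletion in the germline removed the exons that encode the third immunoglobulin-like domain of MuSK, a receptor kinase of muscle that binds BMPs through this domain. The allele is therefore present in every cell type of the muscle. From each genotype 9 tibialis anterior (TA) and 9 soleus libraries were made, 36 in all. By the study's definition, ∆Ig3-MuSK animals carry the deletion on both alleles. The sources used here do not give the sex of the sequenced animals.

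Satellite cells are the stem cells of skeletal muscle and lie between the fiber and its basal lamina. In resting cells Pax7 is the defining transcription factor, and Calcr and Cdh15 encode surface proteins of these cells. Activation brings Myod1 into play, Myog then drives differentiation, and Mymk encodes the membrane protein that fuses myoblasts. Myf6 and, at lower levels, Myod1 and Myog are also transcribed in the nuclei of adult fibers, with Myod1 known as the factor of fast muscle and Myog as that of slow muscle. In RNA from a whole muscle, fewer cells of a type and less RNA per cell cannot be told apart, and transcripts of satellite cells and of fibers are counted together.

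Total counts ranged from 43492062 to 78660422 per library, with medians of 66259327 and 65772531 in WT and ∆Ig3-MuSK TA and 45371395 and 51110940 in soleus. The muscles were checked by Myh7, the slow myosin, which ranged from 1.99 to 37.5 CPM in the TA and from 6542 to 10764 CPM in the soleus, where CPM is the read count scaled to library size over the 36 libraries together. Myh4, the myosin of the fastest fibers, ranged from 11927 to 32882 CPM in the TA and from 150 to 6113 CPM in the soleus. The targeted gene Musk had a mean of 4.25 ± 0.95 CPM (SD, n = 9) in WT TA against 3.09 ± 0.39 CPM in ∆Ig3-MuSK TA, and of 15.2 ± 1.8 against 11.3 ± 3.3 CPM in the corresponding soleus groups. Reads over the whole gene are summed, so reads missing from the deleted exons cannot be told apart from a lower transcript level. Neither genotype difference passed edgeR's quasi-likelihood test (adjusted p = 0.135 for TA, 0.0978 for soleus). A WT TA library, replicate 5, and a ∆Ig3-MuSK soleus library, replicate 8, lay farthest from the rest of their muscle on the first principal component. No member shares exonic bases with another gene of the GRCm38 annotation used here. The span of Gm20388 covers Cdh15, and Mir653 and Mir489 lie within Calcr, without shared exons. The release and mode used for counting are not given, so overlaps in that release were not checked.

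The basic helix-loop-helix factors Myf5, Myod1, Myog and Myf6 bind E-boxes, the short motif CANNTG, and Myog is itself a gene that they are known to activate. The sequence before its start site is shown because Myod1 and Myog went opposite ways between the muscles (below). It is the 250 bases before the RefSeq start site on the plus strand of GRCm38.p6, chr1:134289754-134290003, with E-boxes in capitals.

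Myog promoter: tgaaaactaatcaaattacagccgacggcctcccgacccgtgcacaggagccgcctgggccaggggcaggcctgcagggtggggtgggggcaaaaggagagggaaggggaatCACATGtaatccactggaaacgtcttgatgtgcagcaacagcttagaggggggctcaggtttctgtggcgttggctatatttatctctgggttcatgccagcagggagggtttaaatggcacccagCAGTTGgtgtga

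The E-boxes CACATG and CAGTTG begin 138 and 12 bases before the start site. CANNTG reads as an E-box on both strands. Of 32851 RefSeq promoter windows (250 bases before to 50 after a start), 72.3% held at least 1 E-box and 39.6% at least 2, so that 2 matches are common. The window of Cdh15 held 4 E-boxes, a number reached by 6.49% of windows, while those of Pax7 and Myf5 held 0. Windows were at hand for 5 of the 10 members, and a match of letters is not a measured binding site.

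Deletion of the MuSK Ig3 domain was set against WT within each muscle to ask whether the stem cell and myogenic transcripts depend on it. No member was called in either muscle, where a call needed a Benjamini-Hochberg adjusted p under 0.05 over all genes and a change of at least 1.2-fold. In the TA, edgeR tested 9 members and called 0, with 2 (Myod1 and Myf6) at an unadjusted p under 0.05, a level reached by 24.1% of all genes tested, and DESeq2 and limma-voom also called 0. Over all 20075 genes tested in the TA, 0.0149% were called. In the soleus, edgeR tested 8 members and called 0, with 2 (Heyl and Myf6) at an unadjusted p under 0.05. Of all 19439 genes, 18.5% were at that level and 0.952% were called. DESeq2 and limma-voom each called 1 member, Heyl, beside 490 of 21188 and 653 of 19439 genes in all. The median log2 difference of the members tested, ∆Ig3-MuSK against WT, came to -0.06 for TA and -0.07 for soleus, against 0.00 for all genes in both. Of the members tested, 7 of 9 in TA and 6 of 8 in soleus had a negative log2 difference. Myod1, Myog, Myf6, Cdh15, Pax3 and Mymk had lower means in ∆Ig3-MuSK than in WT in both muscles, with overlapping ranges. In the soleus Pax3 was close to the floor in both genotypes. The TA medians of Myog, Cdh15, Pax3 and Mymk were higher in ∆Ig3-MuSK.

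The muscles were also compared within each genotype, soleus against TA. In WT, 8 of 9 members tested were called, 5 higher (Pax7, Calcr, Myog, Heyl and Cdh15) and 3 lower (Pax3, Myod1 and Myf6) in the soleus. In ∆Ig3-MuSK, 7 of 9 were called, 5 higher (Pax7, Calcr, Myog, Myf5 and Cdh15) and 2 lower (Pax3 and Myod1). The muscles differ in most of their transcriptome, with 57.7% of 19437 genes called in WT and 55.9% of 19910 in ∆Ig3-MuSK, so that a call between muscles is the usual state of a gene here. The sizes of the differences are therefore given member by member. How many of all genes separated the muscles without overlap was not counted. The sources used here do not say whether TA and soleus libraries were prepared together, and a preparation batch and the muscle cannot be told apart. None of the members passed the test of whether the genotype difference varied between the muscles (edgeR, genotype-by-muscle interaction), with 1 member, Heyl, at an unadjusted p under 0.05. Over all 20841 genes edgeR called 0%, and 5193 had an unadjusted p under 0.05. DESeq2 called 1116 of the 9779 genes to which it gave an adjusted p, and limma-voom called 1352 of 20841, with Heyl called by both.

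**Figure D1:**
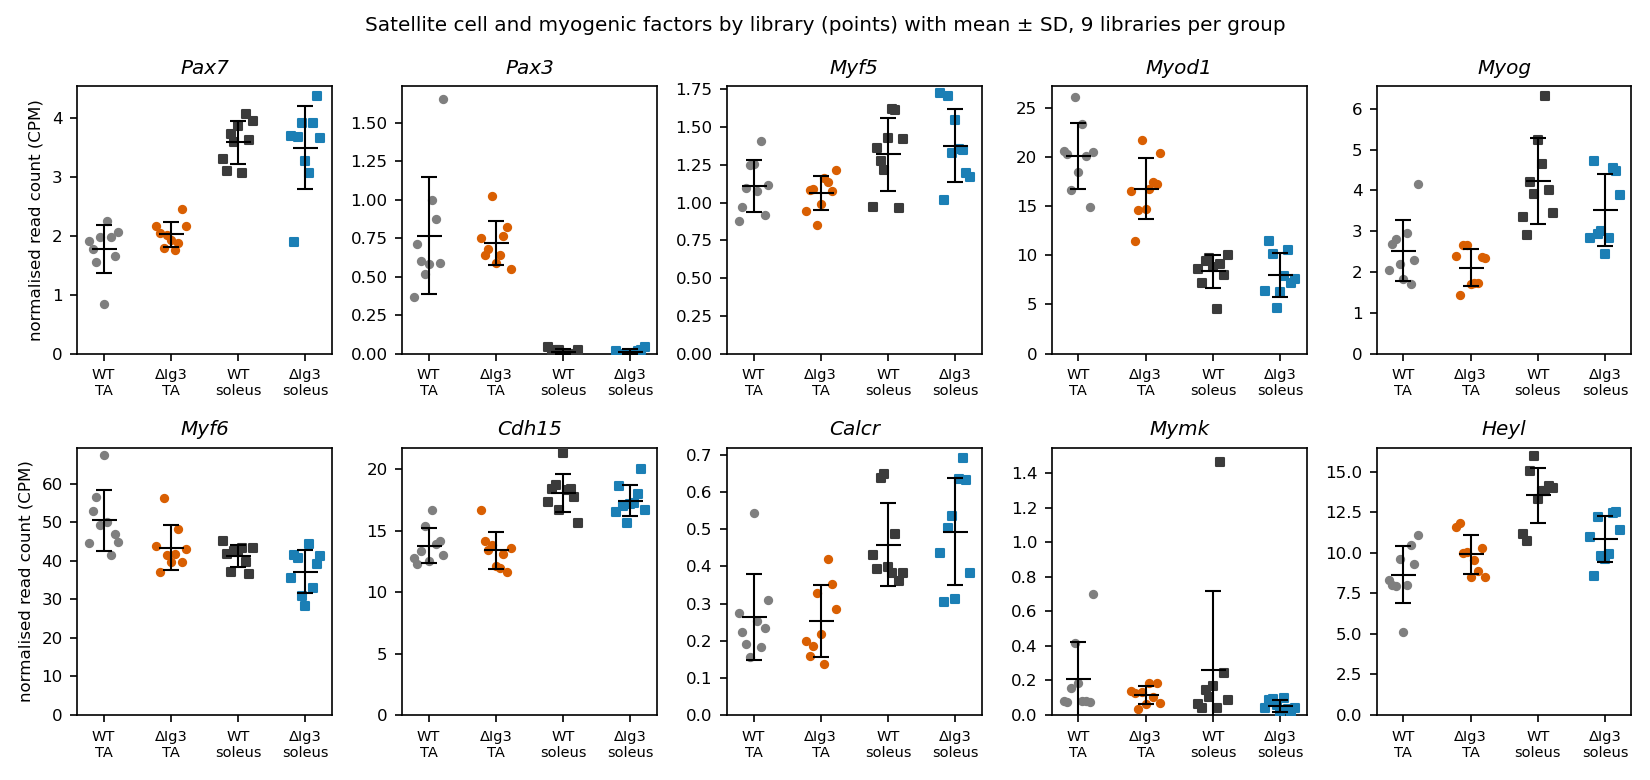
Each panel plots the normalised read count (CPM, linear axis from 0) of a member in the 4 groups, with a point per library and bars for the mean ± SD of 9 libraries, cut at 0. Pax7 and Cdh15 sit higher and Myod1 lower in the soleus, Pax3 is close to 0 there, and a single WT soleus library at 1.47 CPM sets the mean of Mymk.

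Pax7 (chr4:139737062-139833528, minus strand) encodes the paired-box factor that maintains satellite cells. In WT TA it ranged from 0.843 to 2.25 CPM with a median of 1.91, and in WT soleus from 3.05 to 4.06 CPM with a median of 3.63. Each of the 9 soleus libraries exceeded each TA library. In ∆Ig3-MuSK, the TA ranged from 1.76 to 2.45 CPM with a median of 2.00 and the soleus from 1.89 to 4.36 CPM with a median of 3.66. Here 8 of 9 soleus libraries lay above all TA libraries, and the soleus library at 1.89 CPM, replicate 2, fell among them. The soleus level was 2.01-fold that of the TA in WT (log2 fold change 1.01 ± 0.13 SE, edgeR adjusted p = 4.11e-07) and 1.72-fold in ∆Ig3-MuSK (0.79 ± 0.12, adjusted p = 4.41e-06). Between genotypes the log2 difference of Pax7 was 0.18 ± 0.13 for TA (adjusted p = 0.38) and -0.05 ± 0.12 for soleus (adjusted p = 0.85). The WT TA library at 0.843 CPM is replicate 5, and without it the TA difference was 0.09. Without ∆Ig3-MuSK soleus replicate 2 the soleus difference was 0.03.

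Pax3 (chr1:78101267-78197134, minus strand), the paralog of Pax7 that marks satellite cells of some muscles only, had the widest gap between the muscles of the 10 members. In WT TA the reads counted per library ranged from 27 to 123 with a median of 38, and in ∆Ig3-MuSK TA from 31 to 78 with a median of 42. In the soleus each library held 0, 1 or 2 counts, with 5 of 9 libraries at 0 in each genotype. Summed over 9 libraries these were 431 counts in WT TA against 5 in WT soleus, a level 70.0-fold higher in the TA (95% interval 29.8 to 217, exact Clopper-Pearson), and 427 against 5 in ∆Ig3-MuSK, 67.6-fold higher (28.7 to 209). These intervals cover counting error only, and the reads carry no molecular identifiers. Both muscle differences were called (edgeR adjusted p = 4.52e-10 and 1.37e-12). Pax3 passed the filter on low counts in the muscle comparisons through the TA libraries alone. In the soleus it did not pass the filter for the genotype comparison, and without a filter edgeR gave a log2 difference of -0.05 (adjusted p = 0.99). In the TA the log2 difference between genotypes was -0.10 ± 0.22 (adjusted p = 0.80), and it turned to 0.14 without WT TA replicate 9 and to 0.12 with limma-voom.

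Cdh15 (chr8:122847966-122867397, plus strand) encodes M-cadherin, which holds the satellite cell to its fiber. It ranged from 12.3 to 16.7 CPM with a median of 13.3 in WT TA and from 15.6 to 21.3 CPM with a median of 18.3 in WT soleus. In ∆Ig3-MuSK it ranged from 11.7 to 16.7 CPM with a median of 13.5 in TA and from 15.7 to 20.0015 CPM with a median of 17.2 in soleus. All 9 soleus libraries of each genotype lay above the TA median of that genotype. The soleus was higher by 0.39 ± 0.06 on the log2 scale in WT (1.31-fold, edgeR adjusted p = 2.12e-05) and by 0.37 ± 0.06 in ∆Ig3-MuSK (1.30-fold, adjusted p = 1.52e-05). These are the smallest standard errors among the members in the muscle comparisons. The genotypes differed by -0.04 ± 0.07 for TA (adjusted p = 0.73) and by -0.06 ± 0.05 for soleus (adjusted p = 0.53).

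Calcr (chr6:3685680-3764714, minus strand) encodes the calcitonin receptor, which keeps satellite cells quiescent. It was counted 9 to 37 times per library, so counting error is a large part of its spread. Its level ranged from 0.156 to 0.543 CPM (median 0.233) in WT TA and from 0.361 to 0.649 CPM (median 0.399) in WT soleus. In ∆Ig3-MuSK it ranged from 0.138 to 0.421 CPM (median 0.217) in TA and from 0.303 to 0.692 CPM (median 0.503) in soleus. The ranges of the muscles overlapped in each genotype, while all 9 soleus libraries exceeded the TA median. Calcr was 1.73-fold higher in WT soleus than WT TA (log2 0.79 ± 0.21, edgeR adjusted p = 0.00221) and 1.91-fold higher in ∆Ig3-MuSK (0.93 ± 0.22, adjusted p = 0.000814). Between genotypes it differed by -0.04 ± 0.25 in TA (adjusted p = 0.94) and by 0.09 ± 0.18 in soleus (adjusted p = 0.83). The TA value turned positive without WT TA replicate 5 (0.15) or any 1 of ∆Ig3-MuSK TA replicates 1, 2, 3 and 6, and with limma-voom (0.19) or library sizes alone (0.02).

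Heyl (chr4:123233556-123249875, plus strand) encodes a transcriptional repressor induced by Notch, the pathway that keeps satellite cells in quiescence, and is also known from the smooth muscle of vessels. In WT soleus it ranged from 10.7 to 16.0 CPM with a median of 13.8, and in ∆Ig3-MuSK soleus from 8.60 to 12.5 CPM with a median of 10.96. All 9 ∆Ig3-MuSK soleus libraries were below the WT median, 4 were below the lowest WT library, and 7 of 9 WT libraries were above the highest ∆Ig3-MuSK library. The log2 difference was -0.34 ± 0.08, or a level 0.793 times that of WT, and the adjusted p of 0.0560 (edgeR) missed the threshold. DESeq2 and limma-voom put it past the threshold (adjusted p = 0.0122 and 0.0148), as did edgeR without WT soleus replicate 1 (0.0216), WT soleus replicate 2 (0.0223) or ∆Ig3-MuSK soleus replicate 7 (0.0357). Over the 18 edgeR fits with 1 library left out, the adjusted p reached 0.102. Over alternatives that kept all libraries, the adjusted p reached 0.0833. In the TA the direction was the opposite. WT TA ranged from 5.13 to 11.1 CPM with a median of 8.34 and ∆Ig3-MuSK TA from 8.54 to 11.8 CPM with a median of 9.97, with all 9 ∆Ig3-MuSK libraries above the WT median (log2 difference 0.19 ± 0.11, adjusted p = 0.27). Without WT TA replicate 5, the library at 5.13 CPM, the TA difference was 0.12 (edgeR adjusted p = 0.45).

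The test of whether the genotype difference of Heyl varied between the muscles gave a log2 value of -0.52 ± 0.14 (edgeR adjusted p = 0.0992). DESeq2 gave an adjusted p of 0.0370 and limma-voom 0.0218, and edgeR gave 0.0341 without WT TA replicate 9 and 0.0471 without ∆Ig3-MuSK TA replicate 3. Over the 36 edgeR fits with 1 library left out, the adjusted p reached 0.175. Over alternatives that kept all libraries, the adjusted p reached 0.152. Set against the TA, Heyl was 1.56-fold higher in WT soleus (log2 0.64 ± 0.11, adjusted p = 2.60e-05), whereas in ∆Ig3-MuSK the muscles differed by 0.12 ± 0.08 (adjusted p = 0.19). Markers of vessel-wall cells were read beside this gene. The summed level of 7 mural genes ranged from 668 to 796 CPM in WT soleus and from 640 to 802 CPM in ∆Ig3-MuSK soleus, and in the TA from 516 to 663 and from 576 to 715 CPM. The summed level of 5 endothelial genes had a median of 371 CPM in WT soleus and 323 CPM in ∆Ig3-MuSK soleus, with ranges of 303 to 405 and 277 to 372 CPM. Its deviations had a Spearman correlation with those of Heyl of 0.63 over the 18 soleus libraries and 0.43 over the 18 TA libraries. For the mural sum the same correlations were 0.38 and 0.26. Of the 7 mural genes Acta2, the smooth muscle actin, was called lower in ∆Ig3-MuSK soleus (log2 -0.38 ± 0.09, adjusted p = 0.0496). Across the 36 libraries, the deviation of Heyl from its group mean had a Spearman correlation of 0.62 with that of Cspg4, a pericyte gene, and 0.58 with that of Notch3. It was 0.28 with the endothelial gene Pecam1, 0.12 with Hes1 of the Notch pathway, -0.04 with Rgs5 and -0.24 with Acta2. Notch3 was at 36.1 ± 11.6 CPM (SD, n = 9) in WT TA and 44.8 ± 4.9 CPM in ∆Ig3-MuSK TA, and at 48.7 ± 3.0 and 41.2 ± 5.6 CPM in soleus, and was not called in either muscle (edgeR adjusted p = 0.25 and 0.0844). These companions were chosen after values were seen, and their part in the result was not tested.

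Myf5 (chr10:107482908-107486134, minus strand) is the earliest of the myogenic regulatory factors and, with Myf6, lies in a gene pair whose exons are 6718 bases apart. It ranged from 0.877 to 1.41 CPM (median 1.09) in WT TA, 0.851 to 1.21 CPM (median 1.09) in ∆Ig3-MuSK TA, 0.962 to 1.62 CPM (median 1.36) in WT soleus and 1.02 to 1.73 CPM (median 1.35) in ∆Ig3-MuSK soleus. The groups overlapped in each of the comparisons. The soleus was called higher in ∆Ig3-MuSK (log2 0.38 ± 0.11, edgeR adjusted p = 0.00442) and missed the call in WT (0.26 ± 0.12, adjusted p = 0.0714). The WT value passed without WT soleus replicate 1 (edgeR adjusted p = 0.0250) or replicate 8 (0.0325) and without WT TA replicate 5 (0.0468) or replicate 7 (0.0384). With all libraries it passed with limma-voom (adjusted p = 0.0258) and in edgeR with library sizes alone (0.00632). A single library, the tool or the scaling thus decides this call. The genotype differences were -0.06 ± 0.10 in TA and 0.05 ± 0.13 in soleus (adjusted p = 0.74 and 0.87).

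Myod1 (chr7:46376474-46379099, plus strand), the factor that commits activated satellite cells and is transcribed in fast fibers, was lower in the soleus. WT TA ranged from 14.9 to 26.2 CPM with a median of 20.3, and WT soleus from 4.54 to 10.1 CPM with a median of 8.81. In WT the muscles did not overlap. ∆Ig3-MuSK TA ranged from 11.4 to 21.7 CPM with a median of 16.7, and ∆Ig3-MuSK soleus from 4.66 to 11.5 CPM with a median of 7.58, with 1 soleus library (replicate 2) reaching the lowest TA library. The TA level was 2.40-fold that of the soleus in WT (log2 -1.27 ± 0.12 for soleus against TA, edgeR adjusted p = 1.07e-08) and 2.10-fold in ∆Ig3-MuSK (-1.07 ± 0.15, adjusted p = 1.42e-06). Between genotypes, 7 of 9 ∆Ig3-MuSK TA libraries lay below the WT median and 3 below the lowest WT library. The log2 difference there was -0.26 ± 0.11 (edgeR adjusted p = 0.18). In the soleus it was -0.08 ± 0.16 (adjusted p = 0.83).

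Myog (chr1:134289989-134292548, plus strand) encodes myogenin, the factor of terminal differentiation and of slow and denervated fibers. It ranged from 1.69 to 4.15 CPM (median 2.28) in WT TA and from 2.91 to 6.32 CPM (median 4.01) in WT soleus. In ∆Ig3-MuSK it ranged from 1.44 to 2.66 CPM (median 2.34) in TA and from 2.45 to 4.73 CPM (median 3.01) in soleus. All soleus libraries of each genotype exceeded the TA median, with overlap at the edges. The soleus was 1.67-fold higher in WT (log2 0.74 ± 0.16, edgeR adjusted p = 0.000452) and 1.66-fold higher in ∆Ig3-MuSK (0.73 ± 0.15, adjusted p = 0.000162). Between genotypes Myog differed by -0.26 ± 0.16 for TA (adjusted p = 0.30) and by -0.28 ± 0.15 for soleus (adjusted p = 0.34) on the log2 scale. Without WT TA replicate 9 the TA value was -0.14, and without WT soleus replicate 7 the soleus value was -0.18.

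Myf6 (chr10:107492853-107494737, minus strand), also called MRF4, is the myogenic factor of adult fibers and had the highest level of the 10 members per exonic kilobase. It ranged from 41.4 to 67.4 CPM (median 49.3) in WT TA, 37.0 to 56.2 CPM (median 41.6) in ∆Ig3-MuSK TA, 36.6 to 45.1 CPM (median 42.2) in WT soleus and 28.4 to 44.5 CPM (median 39.1) in ∆Ig3-MuSK soleus. Of the 9 ∆Ig3-MuSK libraries, 8 lay below the WT median in each muscle. The log2 differences between genotypes were -0.22 ± 0.09 in TA (adjusted p = 0.17) and -0.16 ± 0.07 in soleus (adjusted p = 0.23), both with edgeR. WT soleus was called lower than WT TA (log2 -0.29 ± 0.08, adjusted p = 0.00226), just past the fold minimum. The value was -0.22 without WT TA replicate 5 and -0.26 without WT TA replicate 3, and -0.23 with limma-voom, all under the fold minimum. In ∆Ig3-MuSK the difference of -0.23 ± 0.08 (adjusted p = 0.0221) was under the fold minimum too.

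Mymk (chr2:27061636-27072179, minus strand) encodes myomaker, which myoblasts need in order to fuse and which resting muscle hardly transcribes. Too few reads were counted for it to enter any of the edgeR tests. The counts ranged from 4 to 52 (median 6) in WT TA, 2 to 12 (median 8) in ∆Ig3-MuSK TA, 2 to 87 (median 5) in WT soleus and 0 to 5 (median 2) in ∆Ig3-MuSK soleus. The library with 87 counts, WT soleus replicate 7, held most of the 130 counts of its group, and WT TA replicates 9 and 4 held 52 and 24 of 120. WT soleus replicate 7 was at 1.47 CPM of Mymk and also had the highest Myog of all libraries (6.32 CPM), 0.438 CPM of Mymx, which encodes the fusion partner of myomaker, 59.1 CPM of the embryonic myosin Myh3, 7.80 CPM of the macrophage gene Cd68 and 7.54 CPM of the leukocyte gene Ptprc. Its summed level of 5 macrophage and leukocyte genes, 70.0 CPM, was the highest of the 36 libraries, against a median of 33.9 CPM in its group. Summed over 9 libraries of ∆Ig3-MuSK, TA held 68 counts and soleus 25, a level 2.15-fold higher in the TA (95% exact interval 1.34 to 3.55, counting error only). In WT the level in TA was 0.749 times that in soleus (0.580 to 0.968), with most of the soleus counts in replicate 7. In a fit with no filter edgeR called the muscle difference in ∆Ig3-MuSK (adjusted p = 0.0300) and not in WT (log2 0.40 for soleus against TA, adjusted p = 0.63). DESeq2 gave log2 -1.11 in ∆Ig3-MuSK (adjusted p = 0.0248) and -0.91 in WT (adjusted p = 0.13), so the WT direction depended on the fit. With no filter, edgeR called neither the genotype difference in soleus (log2 -2.32, adjusted p = 0.13) nor that in TA (-0.86, adjusted p = 0.31).

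**Figure D2:**
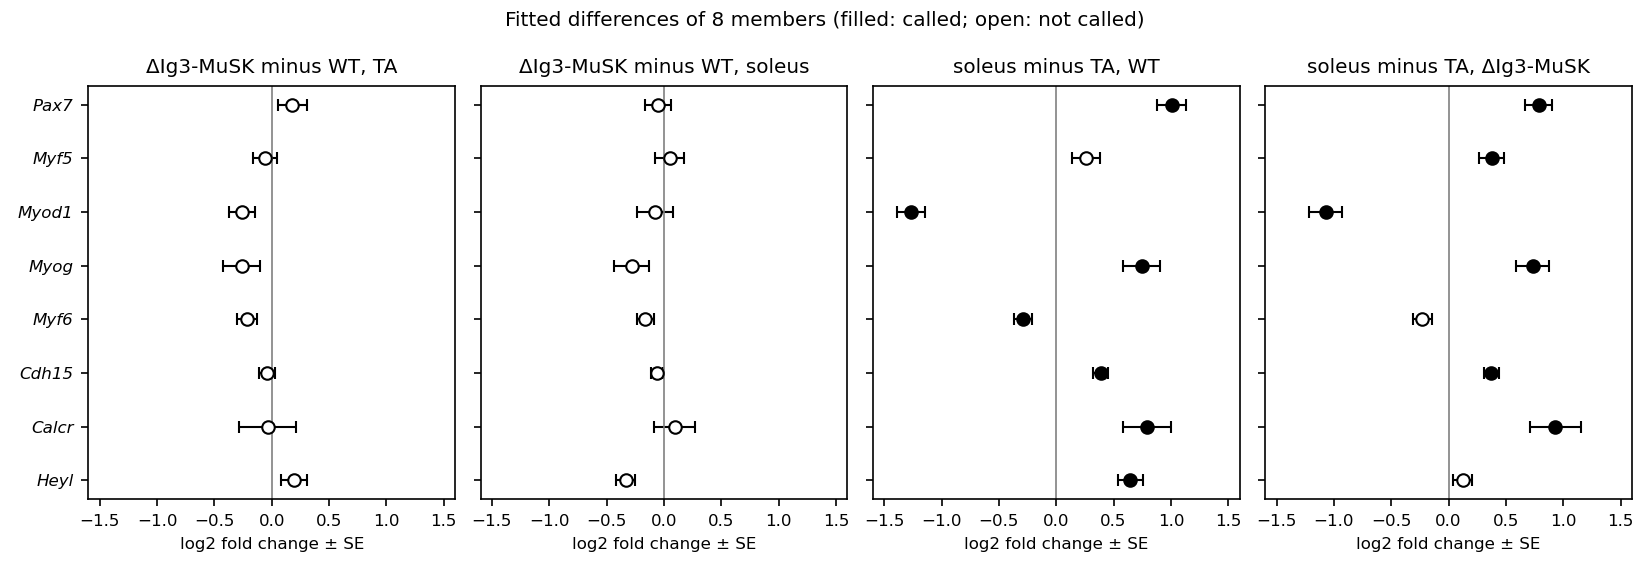
The fitted log2 fold change ± SE of 8 members is plotted for both genotype and both muscle comparisons, filled where the gene was called. Genotype differences lie between -0.34 and 0.19 and none is filled, while muscle differences reach -1.27 for Myod1 and 1.01 for Pax7.

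Ratios between members within a library do not depend on the scaling of the libraries. The Myog count divided by the Myod1 count (0.5 added to both) had a median of 0.127 in WT TA, with a range of 0.0845 to 0.202, and of 0.448 in WT soleus, with a range of 0.342 to 1.03. In ∆Ig3-MuSK the medians were 0.123 (0.0986 to 0.181) and 0.433 (0.289 to 0.648). The muscles did not overlap in either genotype, and the mean log2 ratio was higher in soleus by 2.04 in WT and 1.83 in ∆Ig3-MuSK (exact permutation test, two-sided, p = 4.11e-05 in each, the smallest that 48620 assignments give, and 0.000165 after Benjamini-Hochberg adjustment over 16 comparisons). Between genotypes the mean log2 ratio differed by 0.03 in TA and -0.18 in soleus (exact permutation p = 0.864 and 0.41, adjusted p = 0.92 and 0.55). The count ratio of Pax7 to Cdh15, which sets the stem cell factor against a surface protein that other muscle cells also carry, had a median of 0.135 in WT TA and 0.199 in WT soleus. Its log2 mean was higher in soleus by 0.66 in WT and by 0.38 in ∆Ig3-MuSK (exact permutation p = 4.11e-05 and 0.0203, adjusted p = 0.000165 and 0.0406). In the TA the log2 mean of this ratio was higher in ∆Ig3-MuSK than in WT by 0.26 (exact permutation p = 0.0510, adjusted p = 0.0907). The TA medians were 0.135 in WT and 0.146 in ∆Ig3-MuSK. WT TA replicate 5 stood apart at 0.0680, with the next WT TA library at 0.117. The ratio of Pax7 to Myf5 was higher in soleus by 0.80 in WT and 0.40 in ∆Ig3-MuSK (adjusted exact permutation p = 0.000527 and 0.0214), and that of Myf6 to Myod1 by 1.00 and 0.87 (adjusted p = 0.000165 and 0.000548). None of the 8 genotype comparisons of ratios passed after adjustment. The ratios were chosen after the values of the members were seen.

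**Figure D3:**
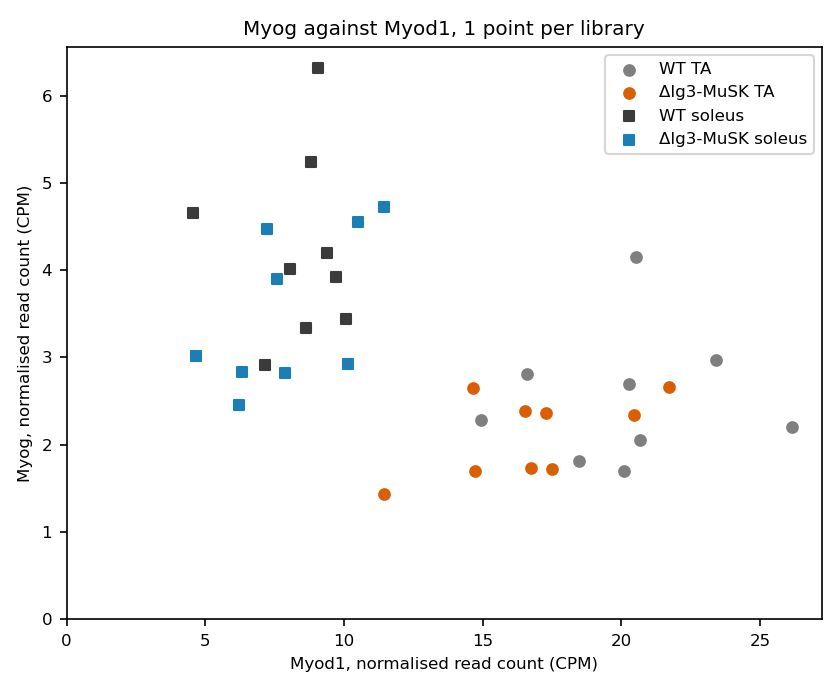
Each point is a library, with Myod1 (CPM) on the horizontal and Myog (CPM) on the vertical axis and the 4 groups by colour and shape. TA libraries lie to the lower right and soleus libraries to the left, and the genotypes are interspersed within each muscle.

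Levels of different genes were compared per kilobase of exon. Of the summed level of Myf5, Myod1, Myog and Myf6, Myf6 made up 75.2% ± 4.1 (SD, n = 9) in WT TA, 75.8% ± 3.5 in ∆Ig3-MuSK TA, 80.4% ± 2.8 in WT soleus and 80.1% ± 3.2 in ∆Ig3-MuSK soleus. The share of Myod1 was 20.6% ± 3.7 in WT TA and 19.9% ± 3.2 in ∆Ig3-MuSK TA, against 11.1% ± 2.2 and 11.6% ± 2.5 in soleus. The share of Myog was 3.22% ± 1.03 and 3.10% ± 0.53 in TA and 6.97% ± 1.72 and 6.42% ± 1.37 in soleus. Myf5 was the least, at 1.01% ± 0.20 in WT TA and 1.56% ± 0.27 in WT soleus, and at 1.14% ± 0.17 and 1.85% ± 0.50 in ∆Ig3-MuSK TA and soleus. In each muscle the mean shares of the genotypes lay within 1 SD of each other for Myod1, Myog and Myf6, whereas for Myf5 in soleus they lay farther apart than the SD of WT and within that of ∆Ig3-MuSK.

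**Figure D4:**
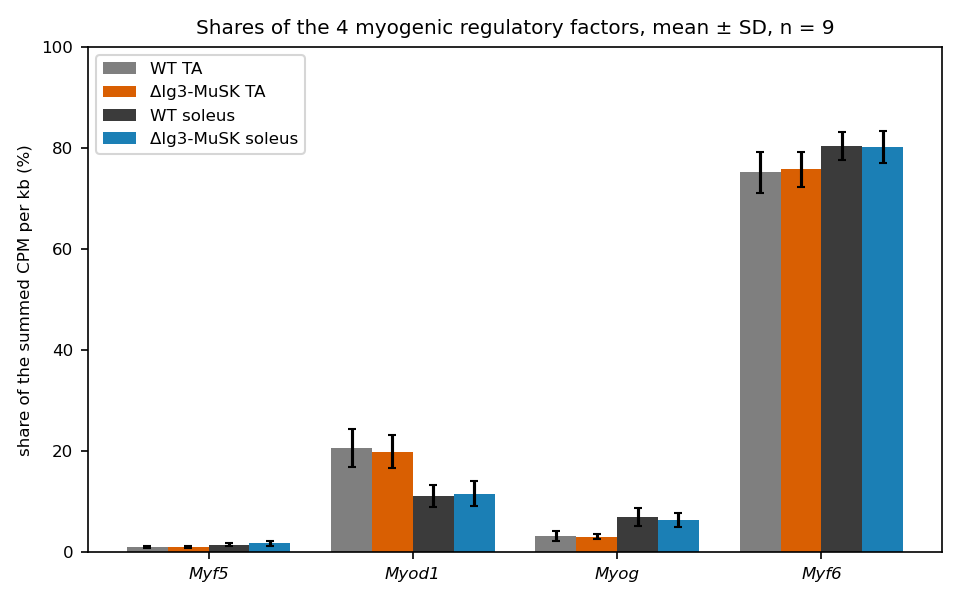
Bars give the mean share (%, axis from 0) of Myf5, Myod1, Myog and Myf6 in their summed CPM per kilobase of exon, with SD over 9 libraries, in the 4 groups. Myf6 holds between 75.2% and 80.4%, and the share of Myod1 falls and that of Myog rises from TA to soleus.

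Variation among libraries of the same group was described by deviations of log2 CPM from the group mean over the 36 libraries. Of 36 pairs formed by 9 members, 3 had a Spearman correlation above 0.35 in size. Pax7 went with Heyl (Spearman 0.53, Pearson 0.71, and 0.47 without the 2 libraries farthest in Pax7) and against Myf6 (Spearman -0.47, Pearson -0.53, and -0.34 without those libraries), and Myod1 went with Myog (0.37, 0.30 and 0.39). WT TA replicate 5 had the lowest Pax7 and Heyl and the highest Myf6 of its group. The points share library depth and scaling, and no p-value is given. Among 20840 genes, those most like Pax7 included 5730596B20Rik and Uba7 (Spearman 0.77 and 0.75). Most like Myod1 were Gm17530, Hexim1 and Rara (0.72, 0.65 and 0.63), and most like Myog were Fscn1, Trim72 and Gimap1 (0.68, 0.67 and 0.66). None of these 8 genes is a member.

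Related genes were read from lists. Between genotypes, the counts are to be read against 0.0149% of all genes called in TA and 0.952% in soleus, and against 24.1% and 18.5% at an unadjusted p under 0.05. Of 14 further satellite cell genes, 0 were called between genotypes in the TA and 1 in the soleus, where Sdc4, a heparan sulfate proteoglycan of satellite cells, fell by 0.37 on the log2 scale (± 0.08, edgeR adjusted p = 0.0381) in ∆Ig3-MuSK. Of 12 genes of the Notch pathway and 16 other myogenic transcription factors, 0 were called in either muscle, with 5 and 4 at an unadjusted p under 0.05 in the TA and 3 and 1 in the soleus. Of 11 genes of myoblast fusion, 9 were tested in the TA and 0 called, and 10 were tested in the soleus and 1 called. This was Cdon, a cell-surface receptor of myogenic differentiation, which fell by 0.44 (± 0.09, adjusted p = 0.0321). Of 7 proliferation genes tested of 10 listed, 0 were called in either muscle, with 1 at an unadjusted p under 0.05 in the TA and 2 in the soleus. Lists of immature-fiber (6 genes), activity-dependent (12), immediate-early (11), slow-fiber (7) and fast-fiber (7) genes held 0 called genes between genotypes by edgeR, with 1, 3, 1, 0 and 1 at an unadjusted p under 0.05 in the TA and 3, 6, 6, 0 and 1 in the soleus. Of 14 circadian clock genes tested, 1 was called in the TA (Dbp, higher by 0.90) and 10 in the soleus. These 10 were 8 higher (Ciart, Per2, Dbp, Per3, Hlf, Tef, Nr1d2 and Cry2, by 0.44 to 1.65) and 2 lower (Arntl at -0.78 and Npas2 at -1.18) in ∆Ig3-MuSK. An unadjusted p under 0.05 was reached by 12 of the 14 clock genes in each muscle. Their median log2 difference was 0.37 for TA and 0.47 for soleus, so the list was shifted upward in both muscles. For the genotype-by-muscle interaction edgeR called 0 clock genes, with 2 at an unadjusted p under 0.05. Of lists of other cell types, Acta2 in the mural list and Syt1 in the neuron list (log2 0.84 ± 0.19, adjusted p = 0.0390) were called in the soleus, and 0 genes of the endothelial, fibro-adipogenic, macrophage and leukocyte, Schwann cell, tendon, adipocyte and bone and cartilage lists in either muscle.

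Between muscles, calls in these lists are read against the 57.7% and 55.9% of all genes called. Of the 14 further satellite cell genes, 7 were higher and 3 lower in WT soleus, led by Megf10 (log2 1.25) and Chrdl2 (1.15) and by Cdkn1c (-0.39) and Cdkn1b (-0.31), the latter both inhibitors of the cell cycle, and 4 were higher and 1 lower in ∆Ig3-MuSK soleus. The median log2 difference of this list was 0.27 in WT and 0.09 in ∆Ig3-MuSK. Of 12 Notch pathway genes, 4 were higher and 0 lower in WT, led by Hes1 (1.02) and Notch3 (0.43), and 2 were higher and 3 lower in ∆Ig3-MuSK, with Hes1 at 1.37, Notch1 at -0.34 and Notch2 at -0.28. Of 16 other myogenic transcription factors, 9 were higher and 4 lower in WT, with Pitx3 at 0.96, Eya4, a fast-fiber cofactor, at -2.33 and Lbx1 at -0.72, and 9 higher and 5 lower in ∆Ig3-MuSK. Fusion genes were 7 higher and 1 lower of 9 tested in WT, led by Jam3 (1.66) and Cdh2 (1.46) and by Stab2 (-1.61). Proliferation genes were 3 higher, with Rrm2 at 1.45 and Top2a at 0.92, and 1 lower, Mcm2 at -0.82, of 7 tested in WT. Without WT soleus replicate 7, Top2a was at 0.37 and was no longer called (edgeR adjusted p = 0.11). Activity-dependent genes were 6 higher, led by Chrna1 (2.25), a subunit of the acetylcholine receptor, and Dach2 (2.07), and 3 lower, led by Gadd45a (-1.59) and Chrne (-0.93), of 11 tested in WT.

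Markers of cells other than muscle were read beside the muscle differences. In WT soleus against WT TA, 5 of 5 endothelial genes were higher (Kdr 0.75 and Pecam1 0.66), 5 of 7 mural genes (Cspg4 1.10 and Myh11 0.52), 5 of 5 tendon genes (Mkx 1.89 and Fmod 1.72) and 4 of 4 adipocyte genes (Plin1 1.99 and Lep 1.83). Of 5 macrophage and leukocyte genes 2 were higher, of 6 fibro-adipogenic genes 2 were higher and 1 lower, and of 5 Schwann cell genes 1 was higher. Of 6 neuron genes 2 were higher (Gap43 1.08 and Stmn2 0.92) and 4 lower, led by Snap25 (-1.12) and Nefl (-0.98). Of 3 bone and cartilage genes tested 1 was lower (Acan -0.73). In ∆Ig3-MuSK, 3 of 5 endothelial, 5 of 5 tendon and 4 of 4 adipocyte genes were higher in soleus. Of 7 mural genes there, 3 were higher and 1 lower. The summed endothelial level ranged from 185 to 284 CPM in WT TA and from 303 to 405 CPM in WT soleus, without overlap. In ∆Ig3-MuSK these ranges overlapped, at 241 to 278 CPM in TA and 277 to 372 CPM in soleus. In WT the summed mural level (516 to 663 CPM in TA, 668 to 796 CPM in soleus) and tendon level (128 to 218 and 259 to 680 CPM) did not overlap either. These sums were higher in WT soleus, as were Pax7, Calcr, Myog, Heyl and Cdh15. The part of these cells in the muscle differences of the members was not tested.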

How the data were processed

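RNA of whole TA and soleus muscles was sequenced without strand information. The authors trimmed reads with Trimmomatic, aligned them to mm10 (GRCm38) with GSNAP and deposited the htseq-count output as raw counts per Ensembl gene, in a table for each muscle. Tool versions, annotation release and counting mode are not given in the sources used here. Groups and replicate numbers came from the labels, and 0 columns of other samples were present. Symbols were found for 51633 of 51912 identifiers. The study describes 1 muscle per animal for sequencing.

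With edgeR 4.0.16 in R 4.3.3, all genes passing filterByExpr (minimum count 10, minimum total 15) were fitted in each comparison with TMM factors (glmQLFit, glmQLFTest, no covariate), and p-values were adjusted over all genes tested. SE is the log2 fold change divided by the square root of F. CPM used TMM factors of the 36 libraries together, and gene likeness its log2 with a prior count of 2, while the correlations given for member pairs and Heyl companions added 0.05 CPM before log2. The 16 ratio comparisons used exact permutation tests.

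Alternatives were DESeq2 1.42.0, limma-voom with quality weights (limma 3.58.1), RLE factors, other filters on low counts, no fold minimum, a replicate block, a single fit and each library left out. A further pair was chosen after seeing the data, namely library sizes alone and removal of the most distant library of each muscle. The procedure was tested on simulated data. The members and gene lists were chosen with earlier results of these data known. Named are all members, list genes called between genotypes, Musk, Myh7 and Myh4, the 3 genes most like Pax7, Myod1 and Myog, and, for lists described between muscles, the 2 called genes with the largest difference in each direction in WT. A gene likened to Pax7 and a gene of the myogenic transcription factor list that this rule names are not reported here.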

Additional observations from a re-analysis of the deposited data

Results flagged for a closer look

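In each of 40 combinations of member and group, the gap of the extreme library to its nearest neighbour was set against the range of the 9 libraries with Dixon's test. A single library stood apart in 6 of them, where chance gives about 1 in 20 for independent, normally distributed values. The low counts of Pax3 in soleus, Calcr and Mymk do not meet this condition, and the combinations share libraries. The 6 are therefore listed as a description. Pax7 was lowest in WT TA replicate 5, at 0.843 CPM against 1.55 CPM in the next library. Calcr was highest in the same library, at 0.543 CPM. Pax3 was highest in WT TA replicate 9, at 1.66 CPM, and in WT soleus replicate 1, where 0.0431 CPM stands for 2 counts. Cdh15 was highest in ∆Ig3-MuSK TA replicate 1, at 16.7 CPM. Mymk was highest in WT soleus replicate 7, at 1.47 CPM.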

How the results depend on the processing

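No member was called between genotypes in the TA under any alternative run. In the soleus the number of members called rose from 0 to 1 with DESeq2, limma-voom, the replicate block (title number) and library sizes alone, and in each it was Heyl. For the genotype-by-muscle interaction it rose from 0 to 1 with DESeq2 and limma-voom, again Heyl. With single libraries left out, the number ranged from 0 to 0 for genotype in TA, 0 to 1 in soleus, 7 to 9 for muscle in WT, 7 to 7 for muscle in ∆Ig3-MuSK and 0 to 1 for the interaction. Of 954 values of members with 1 library left out, 943 kept their side of the threshold, and of 410 values under other alternatives 397 did, and 0 called values changed sign. Counts over all genes depended on the tool. In the TA edgeR called 3 genes, DESeq2 234, limma-voom 150, edgeR without a filter 10, the replicate block 0 and the single fit 692. In the soleus these were 185, 490, 653, 141, 347 and 312, with 317 under library sizes alone and 116 without ∆Ig3-MuSK soleus replicate 8. For the interaction they were 0, 1116 with DESeq2, 1352 with limma-voom, 4 with at least 10 counts in every library and 9 with the block. Library sizes alone moved the median of all genes by 0.18 between muscles in WT and by -0.14 in the interaction. The split of calls then went from 5840 higher and 5371 lower to 8076 and 3348 in WT, and in the soleus genotype comparison from 71 and 114 to 48 and 269. Under that scaling Myf6 between muscles in WT was -0.10, and Myf5 0.45. Title replicate numbers shared by WT and ∆Ig3-MuSK libraries had correlated deviations above 0.1 in 2 of 9 pairs of TA and 3 of 9 of soleus. Of TA and soleus libraries that share a label number, 2 of 8 pairs in WT and 5 of 8 in ∆Ig3-MuSK exceeded 0.1. These correlations ranged from 0.03 to 0.12 in WT (median 0.06) and from 0.03 to 0.28 in ∆Ig3-MuSK (median 0.15). For title numbers the medians were -0.003 in TA and 0.009 in soleus. Whether a label number marks 1 animal is not settled by these values. The study describes 1 muscle per animal, and the main comparisons treated the libraries as unpaired, with a block on the number as an alternative. Apart from Heyl in the soleus, the blocks on title and label numbers left the calls of the members as they were. Calcr, Pax3 and Mymk are limited by depth.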

Other observations

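Single libraries carried unusual combinations of the members. ∆Ig3-MuSK soleus replicate 2 had the lowest Pax7 (1.89 CPM), Heyl (8.60 CPM) and Calcr (0.303 CPM) of its group together with the highest Myod1 (11.5 CPM) and Myog (4.73 CPM), and its summed level of 5 macrophage and leukocyte genes, 10.9 CPM, was the lowest of the 36 libraries. WT TA replicate 5 had the lowest Pax7 (0.843 CPM) and Heyl (5.13 CPM) of its group and the highest Myf6 (67.4 CPM) and Calcr (0.543 CPM). WT TA replicate 9 had the highest Pax3 (1.66 CPM), Myog (4.15 CPM), Heyl (11.1 CPM) and Mymk (0.701 CPM) of its group. WT soleus replicate 7 had the highest Pax7 (4.06 CPM), Myog (6.32 CPM) and Mymk (1.47 CPM) of its group, with a summed level of 10 proliferation genes of 35.7 CPM, the highest of the 36 libraries. These libraries were picked after their values were seen, and no test was made.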
